A study of Mus musculus with 3 samples.

Results

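The cytosolic ribosomal protein genes were taken from an RNA sequencing table of mouse melanoma cells with pigment, line B16F10, in which Med23 had been knocked down. Med23 is a subunit of Mediator, which carries signals from transcription factors to RNA polymerase II. Members were the rows whose symbol was Rpl, Rps or Rplp followed by a number, or Rpsa, without pseudogenes and without the Rps6k kinases. This gave 79 of the 12852 genes in the table, 47 of the large (60S) subunit and 32 of the small (40S) subunit. The symbols of 3 members, Rpl22l1, Rpl7l1 and Rps27l, mark paralogs of a ribosomal protein gene. The series held 1 library of control cells, titled siCtrl and labelled wild type, and 2 libraries of knockdown cells, labelled Med23 knockdown-1 and knockdown-2. All came from the same line, grown in DMEM with serum. The header of the table does not tell the knockdown columns apart, so "first" and "second" knockdown library refer to column position alone. The labels do not say whether they were separate cultures or different siRNAs, so their spread may be technical or may hold a difference between siRNAs.

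A ribosome joins a small subunit, which decodes the messenger RNA, to a large subunit, which makes the peptide bond. Each cytosolic ribosomal protein is present in 1 copy per ribosome, apart from the acidic stalk proteins, and the genes are transcribed by RNA polymerase II at high and similar rates. Their messenger RNAs start with a C followed by a run of pyrimidines, the 5′ terminal oligopyrimidine (TOP) element, through which mTOR and Larp1 control translation. Myc raises transcription of these genes in growing cells, and unassembled Rpl5 and Rpl11 bind Mdm2 and so stabilise p53. In mice, mutations of Rps19 and Rps20 darken the skin and a mutation of Rpl24 gives white belly spots, so these genes also bear on pigmentation.

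The values were RPKM, a read density per transcript length and library size, which the authors had made equal in distribution across the libraries. Each column summed to 255492 RPKM, so a change in the total RNA of a cell cannot be seen, read depth was unknown, and fewer cells cannot be told apart from less RNA per cell. Med23 itself had 5.23 RPKM in control cells, then 1.65 and 1.61 RPKM (limma adjusted p = 0.0012). All 8 melanocyte markers examined were detected, and all 8 fell. Of the markers of other cell types 7 had a row, and these summed to 25.3 RPKM in the control and 19.4 RPKM in each knockdown library, mainly from Cd68 (16.9 RPKM in the control) and Des (7.33 RPKM in the control). None of the 7 was listed at 0, and the remaining markers had no row.

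In the control library the 79 ribosomal protein genes made up 9.20% of all RPKM, and in the knockdown libraries 14.2% and 13.7%. Both knockdown libraries stood above the control for 78 of the 79 genes, against 46.6% of the 9722 genes tested. All 79 had an average of 1 RPKM or more, the minimum for testing. By limma, with Benjamini-Hochberg adjustment over all genes tested and a threshold of 0.05, 78 rose, 0 fell and 1, Rpl7l1, did not pass. At an unadjusted p below 0.05, 1 was lower, Rpl7l1. Of all genes tested, 26.3% were called higher and 24% lower. The median log2 ratio of the members was 0.68, a 1.61-fold higher level, and that of all genes tested was 0.01. Log2 ratios here are differences of log2(RPKM + 1) between the mean of the knockdown libraries and the control. At least 1.5-fold in both knockdown libraries was reached by 50 members, against 14.6% of the genes tested, and at least 2-fold by 5, among them Rpl10a, Rps29, Rps20 and Rpl9, against 4.97%. Counted in the first knockdown library without regard to the second, 9 members were at least 2-fold higher, these 5 among them. The share of all genes was not counted for that library by itself.

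The p-values take the spread from the 2 knockdown libraries and a prior over all genes, because the control had no replicate. If the control was taken to have 2 times the SD of a knockdown library, 73 members passed as higher (8.33% of all genes). At 3 times, 21 were (1.21% of all genes), 12 of the large and 9 of the small subunit.

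**Figure D1:**
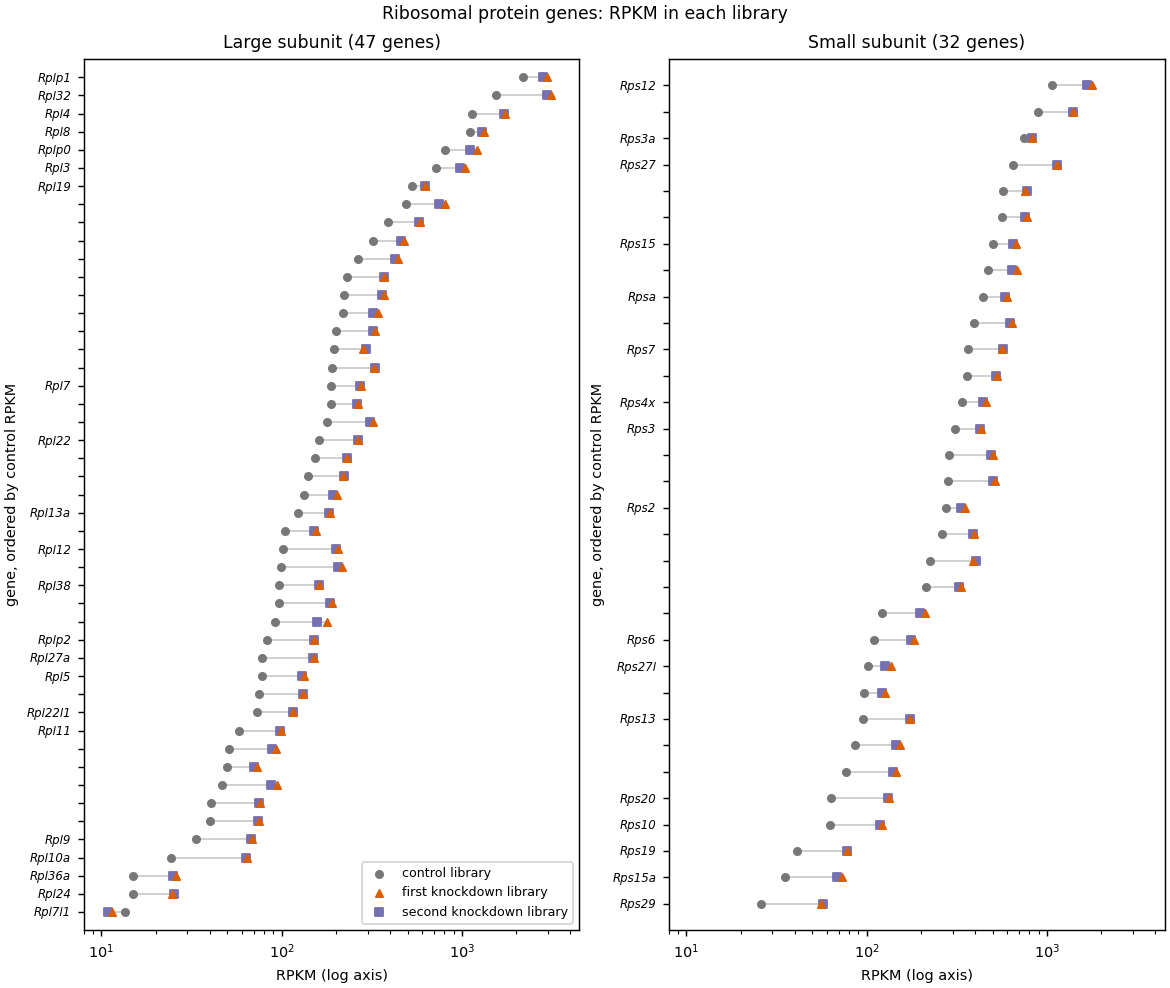
RPKM of each ribosomal protein gene on a log axis in the control library (grey circles), the first knockdown library (orange triangles) and the second (purple squares), with the large subunit on the left, the small subunit on the right and genes ordered by control RPKM, and names given for genes with values in the text. Both knockdown symbols lie to the right of the control in 78 of 79 genes, and Rpl7l1 at the foot of the left panel is the exception.

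Transcript length went along with these ratios. Transcripts of the members had a median length of 775 bases (GENCODE M21, main transcript of each gene), and over all genes the log2 ratio fell with length (Spearman -0.39, n = 9614 genes, which share the 3 libraries). Of the 666 other tested genes with transcripts under 1 kb, 52.9% were called higher, with a median log2 ratio of 0.33. In other genes of 1 to 2 kb the median was 0.20, and in those of 2 kb or more it was -0.09. The 323 other genes averaging 100 RPKM or more had a median log2 ratio of -0.07 and 33.7% of them were called higher. Among the 67 of these with transcripts under 1 kb, the median was 0.05 and 43.3% were called higher. After a smooth trend on length and GC content was removed, 66 members were called higher (28.1% of all genes), 1 was called lower (26.2%) and the median log2 ratio of the members was 0.32. With the trend fitted on genes other than the members, 67 were higher (28.3% of all genes), 1 was lower (25.9%) and the median was 0.36. With the median length over a gene's protein-coding transcripts in place of the main one, 73 were called higher (28.5% of all genes), 1 was called lower (25.1%) and the median was 0.55. The part of length in the result was not tested further. Among the members themselves the log2 ratio did not follow the length assigned (Spearman -0.01, n = 79 genes of the same libraries). These lengths ran from 345 to 5130 bases, with 5130 for Rps15a, 4920 for Rpl24 and 3706 for Rps20. Whether such long transcripts are the ones used in these cells is unknown. The correlation and the corrections on the main transcript both rest on these lengths.

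The large and the small subunit moved by similar amounts. In the large subunit 46 of 47 genes rose and in the small subunit 32 of 32 did. The median log2 ratio was 0.70 for the large subunit, with quartiles of 0.57 and 0.84, and 0.66 for the small subunit, with quartiles of 0.44 and 0.83. The difference of the medians, large minus small, was 0.04 in the first knockdown library and 0.03 in the second. It was 0.02 without the paralogs and -0.01 after the correction for length and GC, so its sign was not stable. No test was made of it, since genes of 1 library are not replicates. Summed RPKM of the large subunit rose from 13381 in the control to 20849 and 20066, and that of the small subunit from 10131 to 15309 and 14992. The ratio of the large to the small subunit in these sums was 1.32 in the control and 1.36 and 1.34 in the knockdown libraries.

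**Figure D2:**
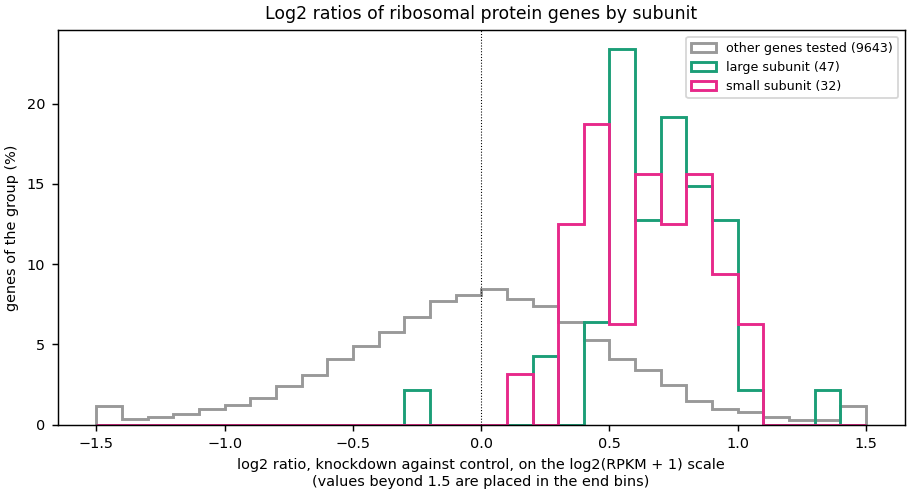
Percentage of genes per bin of log2 ratio (knockdown against control, bins of 0.1) for the large subunit (green), the small subunit (pink) and other tested genes (grey). Both subunits lie mostly between 0.3 and 1.1, with medians of 0.70 and 0.66, and the other genes centre near 0.

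The SD of the log2 ratio over the 79 members was 0.25, while the SD of the difference between the 2 knockdown libraries over the same members was 0.04. The first of these holds the error of the single control library and the second does not, so whether members differed in size of change was not tested. The first knockdown library was the higher one in 61 members and the second in 12, with a median difference of 0.03 on the log2 scale. In 6 members both had the same RPKM, which follows from the equalised distributions, so an SD of 0 there is no measure of precision. Over all genes tested the second library was more often the higher one, in 5551 genes against 4128.

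Of the large subunit, Rpl10a, which lies at the L1 stalk near the exit site for transfer RNA, rose most. Its level was 24.3 RPKM in control cells and 64.1 and 63.1 RPKM after knockdown, a mean of 63.6 ± 0.712 (SD, n = 2). The log2 ratio was 1.35, with an SE of 0.07 and limma adjusted p = 0.000272. Rpl12, at the base of the other stalk, that of Rplp0, went from 102 to 206 and 200.5 RPKM. Rpl9 went from 33.7 to 68.2 and 67.8 RPKM. In each of these genes the knockdown libraries lay close together and about 2-fold or more above the control. Rpl32 stood out because it was also among the most abundant. It had 1545 RPKM in the control and 3119 and 2967 RPKM after knockdown, a log2 ratio of 0.98 with SE 0.04, and moved from rank 16 of all genes to ranks 3 and 4. Rpl27a, whose mutation in mice gives the sooty foot ataxia phenotype of dark feet, rose from 77.7 to 150.5 and 150.2 RPKM.

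In the small subunit the largest rise was that of Rps29, a small zinc-binding protein of the 40S head. It was 26.0 RPKM in control cells and 55.8 and 57.5 RPKM after knockdown, and its log2 ratio was 1.09, with an SE of 0.07 and limma adjusted p = 0.00051. Rps20, one of the dark skin genes, was 63.0 RPKM in control cells and 133 and 131 RPKM after knockdown. Rps19, the other dark skin gene and the one most often mutated in Diamond-Blackfan anaemia, was 41.0 RPKM in control cells and 77.6 and 77.4 RPKM after knockdown, a log2 ratio of 0.90. Rps15a went from 35.4 to 73.0 and 68.3 RPKM, Rps10 from 62.6 to 121 and 118 RPKM, and Rps13 from 95.1 to 174 and 175 RPKM. All of these had control values below 100 RPKM, in the lower part of the range of the small subunit.

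The smallest rises were found mostly in abundant genes. Rps3a was 746 RPKM in control cells and 831 RPKM in both knockdown libraries, and its log2 ratio was 0.15, with an SE of 0.03 and limma adjusted p = 0.0127. Rpl19, which forms a bridge between the subunits, was 530.0 RPKM in control cells and 622 RPKM in both. Rpl8, near the peptidyl transferase centre, was 1106 RPKM in control cells and 1333 and 1297 RPKM after knockdown, a log2 ratio of 0.25. These 3 genes, with Rps15, Rps27l and Rplp1, had a log2 ratio below 0 after the correction for length and GC, between -0.11 for Rpl19 and -0.02 for Rplp1, and none of the 6 passed the test there. Rps2, at the entry of the messenger RNA channel, was 277 RPKM in control cells and 351 and 333 RPKM after knockdown. Rps2 was not called after that correction. Rps15, a protein of the 40S head, was 500.3 RPKM in control cells and 670 and 646 RPKM after knockdown, and Rps4x, encoded on the X chromosome, was 336, then 462 and 442 RPKM.

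Rpl7l1 was the 1 member that was lower in both knockdown libraries. It had 13.5 RPKM in the control and 11.4 and 10.9 RPKM after knockdown, and its log2 ratio was -0.26, with an SE of 0.09 and limma adjusted p = 0.0671. Of all genes tested, 44.2% were lower in both libraries. After the correction for length and GC it was called lower, at -0.26 (limma adjusted p = 0.0384). It was also the least abundant member. Its parent Rpl7, a structural protein of the large subunit, was 189 RPKM in control cells and 277 and 272 RPKM after knockdown. The other paralogs rose. Rpl22l1 was 72.8 RPKM in control cells and 116 RPKM in each knockdown library, beside its parent Rpl22 at 161, then 265 and 265 RPKM. Their log2 ratios were 0.67 and 0.71. Rps27l, which is known as a target of p53, was 102 RPKM in control cells and 136 and 126 RPKM after knockdown, a log2 ratio of 0.35. Its parent Rps27 was 646 RPKM in control cells and 1135 RPKM in both knockdown libraries, a log2 ratio of 0.81.

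The stalk of the large subunit recruits elongation factors and consists of Rplp0 with Rplp1 and Rplp2. Rplp0 was 804 RPKM in control cells and 1218 and 1106 RPKM after knockdown, a log2 ratio of 0.53. Rplp1, the most abundant member in the control, was 2182 RPKM in control cells and 2967 and 2816 RPKM after knockdown, a log2 ratio of 0.41. Rplp2 was 82.7 RPKM in control cells and 152 RPKM in each knockdown library, a log2 ratio of 0.87. Rplp1 and Rplp2 bind Rplp0 as pairs, yet their RPKM differed more than 10-fold in every library. Rplp2 has a processed copy with values of the same size, Rplp2-ps1, at 87.9 RPKM in the control and 146 and 152 RPKM after knockdown, so reads of Rplp2 may have been divided between the copies.

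Members with known roles outside the ribosome rose with the rest. Rpl5 and Rpl11, which hold 5S RNA and bind Mdm2, were 77.5 and 58.0 RPKM in the control. Rpl5 was 133 and 129 RPKM after knockdown and Rpl11 was 99.8 and 98.6 RPKM, with log2 ratios of 0.75 and 0.76. Rps7, another protein that binds Mdm2, was 364 RPKM in control cells and 560.4 and 573 RPKM after knockdown. Rps6, the substrate of S6 kinase, went from 109 to 184 and 176 RPKM, a log2 ratio of 0.72. Rps3, which also has an endonuclease activity on damaged DNA, went from 307 to 429 and 427 RPKM, a log2 ratio of 0.48. Rpl13a, which takes part in translational silencing after interferon, went from 123 to 185 and 184 RPKM. Rpl38, whose loss in mice alters the translation of Hox genes, was 97.3 RPKM in control cells and 161 RPKM in both knockdown libraries. Rpsa, also known as the laminin receptor, went from 442 to 598 and 589 RPKM, and Rpl24 from 14.97 to 24.6 and 25.4 RPKM. In all 9 genes the knockdown libraries lay above the control, with log2 ratios from 0.42 for Rpsa to 0.76 for Rpl11.

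The size of the rise went down with abundance. Members were put in 3 classes of nearly equal size by their mean RPKM over the 3 libraries, from 11.9 to 137 RPKM, from 140.0 to 349.6 RPKM and from 377 to 2655 RPKM. The median log2 ratio was 0.85 in the low class (26 genes), 0.70 in the middle class (26 genes) and 0.53 in the high class (27 genes). At least 2-fold in both libraries was reached by 4 genes of the low class, 1 of the middle class and 0 of the high class. Across the 79 members the log2 ratio and the mean RPKM had a Spearman correlation of -0.50, a description of genes that share the same 3 libraries. The mean holds the knockdown values as well. Classes by the mean of the knockdown libraries gave the same medians, and classes by control RPKM gave 0.87, 0.67 and 0.53. After the correction for length and GC the medians were 0.53, 0.32 and 0.27. With the equal distributions a gene can only move to another rank of a fixed set of values. Whether this bears on the ratios of the high class was not tested. Within the high class the quartiles of the log2 ratio were 0.43 and 0.67. Rpl32 had the largest ratio of the class, 0.98, while Rpl4 was at 0.61 and Rps12 at 0.68. Rpl4, which lines the exit tunnel, was 1135 RPKM in control cells and 1743 and 1712 RPKM after knockdown, and Rps12 was 1073, then 1786 and 1665 RPKM. Rpl3, at the peptidyl transferase centre, went from 718 to 1047 and 974 RPKM. In the low class, Rpl36a was 14.98 RPKM in control cells and 26.1 and 25.1 RPKM after knockdown, a log2 ratio of 0.73.

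**Figure D3:**
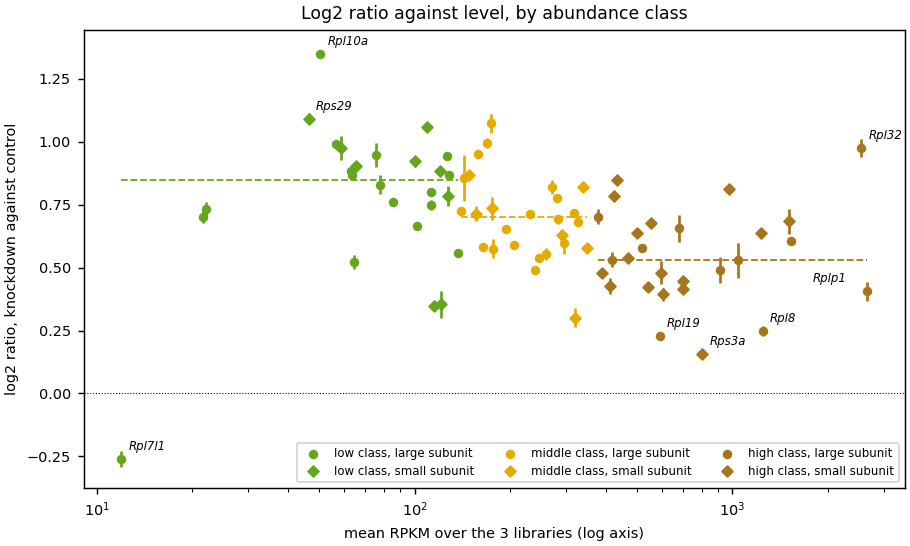
Log2 ratio of each member against its mean RPKM over the 3 libraries (log axis), with abundance class in colour and subunit as symbol. Vertical bars join the ratios of the 2 knockdown libraries to the shared control and dashed lines are the class medians, which go down from 0.85 to 0.70 and 0.53.

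Within the classes the subunits differed little. In the low class the median log2 ratio was 0.80 for 17 genes of the large subunit and 0.90 for 9 genes of the small subunit. In the middle class it was 0.69 (19 genes) and 0.72 (7 genes), and in the high class 0.53 (11 genes) and 0.51 (16 genes). The small subunit had more of its genes in the high class, 16 of 32 against 11 of 47. The median control level was 280 RPKM in the small and 133 RPKM in the large subunit.

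By rank, the members moved up the list of all genes. Among the 100 most abundant genes, 23 were members in the control and 37 and 36 in the knockdown libraries. Among the 500 most abundant, 58 were members in the control and 68 in each knockdown library. The order of the members among themselves was nearly kept, with a Spearman correlation of 0.99 between control and first knockdown RPKM over the 79 genes.

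Start regions of the members are shown because the TOP element and the promoter are what these genes are known to share. RefSeq windows of 300 bases (250 before and 50 after the annotated start, build GRCm38.p6) matched 58 of the 79 members, with 69 windows. The 30 bases centred on the start are printed 5′ to 3′ on the gene's strand, and capitals mark the longest run of C and T in them. Shown first are the 4 members with the largest rises among those with a single window, Rpl9 (chr5:65391417-65391446, minus strand), Rpl12 (chr2:32961697-32961726, plus strand), Rpl27a (chr7:109519180-109519209, plus strand) and Rpl35 (chr2:39005117-39005146, minus strand). The 4 with the lowest ratios follow, Rps4x (chrX:102189377-102189406, minus strand), Rps15 (chr10:80292416-80292445, plus strand), Rps2 (chr17:24720048-24720077, plus strand) and Rpl7l1 (chr17:46782642-46782671, minus strand).
Rpl9: acgcagggCCCTgacggattacaagaacgt
Rpl12: ggcggagcaggatccgTCTTTTCggctttc
Rpl27a: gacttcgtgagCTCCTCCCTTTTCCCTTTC
Rpl35: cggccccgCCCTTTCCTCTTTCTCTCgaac
Rps4x: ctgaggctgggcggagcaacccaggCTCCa
Rps15: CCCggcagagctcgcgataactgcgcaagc
Rps2: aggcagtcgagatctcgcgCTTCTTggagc
Rpl7l1: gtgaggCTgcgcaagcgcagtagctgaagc

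The longest run was 19 bases in Rpl27a, 18 in Rpl35, 7 in Rpl12, 6 in Rps2 and 4 or fewer in the other 4. A run of at least 6 pyrimidines on the gene's strand in these 30 bases was found in 38 of 69 member windows (55.1%) and in 29.2% of the 32851 windows of all genes. Annotated starts can lie some bases from the start used in these cells, so a window without a run says only that none is in those letters. The median log2 ratio was 0.72 in the 37 members with a run and 0.64 in the 21 without. The other letters were searched in the whole windows on both strands. CCGGAAG, the site of ETS factors such as Gabpa and Elk1, was present in 34.8% of member windows and 8.86% of all windows. GGGCGG, the Sp1 site, was present in 60.9% and 35.7%, and CACGTG, the site shared by Myc and Mitf, in 11.6% and 7.15%. TATAAA, the TATA box, was present in 10.1% and 13.6%. The median log2 ratio was 0.66 in the 23 members with CCGGAAG and 0.71 in the 35 without, and 0.68 in the 6 members with CACGTG against 0.71 in the 52 without. No test was made between members with and without a match, and the matches are a description of the letters.

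Genes of the ribosome that the symbol rule leaves out went the same way. Fau encodes a ribosomal protein fused to a ubiquitin-like protein, Gnb2l1 encodes the scaffold Rack1 of the small subunit, and Rpl36al is a close copy of Rpl36a. Fau was 13.1 RPKM in control cells and 22.2 and 23.4 RPKM after knockdown, and Rpl36al was 31.7, then 50.8 and 49.8 RPKM. Gnb2l1 was 462 RPKM in control cells and 584 and 598 RPKM after knockdown. All 4 such genes tested rose, these 3 among them, and the median log2 ratio was 0.70. Of 16 ribosomal protein pseudogenes with values, 5 passed the minimum and all 5 of these rose, among them Rpl9-ps6 from 9.40 to 21.9 and 22.3 RPKM. Pseudogenes named after 60 of the 79 members are known in the reference, so the level of a member is uncertain where reads were divided between near-identical copies.

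Other genes of the pathway are given by list, beside 26.3% of all tested genes called higher and 24% called lower. Of 24 translation factors and other TOP messenger RNAs, 21 rose, 0 fell and 3 did not pass, with a median log2 ratio of 0.50. Eif4a2, an initiation helicase, rose from 62.3 to 126 and 114 RPKM, Btf3, of the nascent chain complex, from 70.3 to 127 and 120.1 RPKM, Eif3f, of initiation factor eIF3, from 90.5 to 154 and 155 RPKM, and Eef1d, an elongation factor, from 16.6 to 25.6 and 25.9 RPKM. Among 75 mitochondrial ribosomal proteins, limma called 32 higher and 5 lower and 38 did not pass, at a median log2 ratio of 0.24. Mrpl32, Mrpl54, Mrpl21 and Mrpl9, of the large mitochondrial subunit, rose with log2 ratios from 0.83 to 1.02. Of 57 ribosome biogenesis factors, 18 rose, 6 fell and 33 did not pass, with a median of 0.20. Pwp2, which was among the falls, had 1.95 RPKM in the control and 0.553 and 0.894 RPKM after knockdown. It met the minimum for testing only through the control. Utp14a and Imp3, of the small subunit processome, and Rrs1 and Sbds, of large subunit assembly, rose with log2 ratios of 1.01, 0.84, 0.90 and 0.80. The test of a difference between these lists and the members was not made, so nothing is called particular to either. With the control SD at 3 times that of a knockdown library, 2 of the translation factors were called higher and no mitochondrial ribosomal protein or biogenesis factor was called in either direction. Of all 9722 genes tested, 118 were called higher and 77 lower at that SD. After the correction for length and GC, 27 mitochondrial ribosomal proteins were called higher and 17 lower, and 26 biogenesis factors higher and 6 lower. In that setting 28.1% of all genes were called higher and 26.2% lower.

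For RNA polymerase I, which makes the large ribosomal RNAs, limma called 7 of 11 genes higher and 2 lower, and 2 did not pass. Polr1c and Polr1d, subunits shared with RNA polymerase III, rose from 29.8 to 54.3 and 53.8 RPKM and from 29.3 to 57.2 and 59.3 RPKM. Twistnb, a subunit of RNA polymerase I, was 2.09 RPKM in control cells and 0.65 and 0.56 RPKM after knockdown, and it met the minimum for testing only through the control. Taf1d, of the promoter selectivity factor, rose from 13.4 RPKM to 43.9 and 29.9 RPKM, with knockdown libraries that lay far apart. Of 19 growth regulators, 3 rose, 5 fell and 11 did not pass, with a median log2 ratio of 0.05. Those shares, 15.8% higher and 26.3% lower, were below and near the shares of 26.3% and 24% over all tested genes. Myc rose from 8.90 to 20.0 and 22.9 RPKM and its partner Max from 17.7 to 26.3 and 27.9 RPKM. Mxd1, which competes with Myc for Max, was 3.75 RPKM in control cells and 0.577 and 0.476 RPKM after knockdown, and it too met the minimum only through the control. Eif4ebp2, a repressor of cap-dependent translation, fell from 21.3 to 7.19 and 9.67 RPKM. Mtor, at a log2 ratio of -0.33, Yy1 and Eif4ebp1 were also called lower and Mlst8 higher. Larp1 did not pass. Among 10 genes of p53 and its targets, limma called 0 higher and 7 lower, and 3, Trp53, Bax and Mdm4, did not pass. Bax was 50.7 RPKM in control cells and 52.9 and 51.4 RPKM after knockdown. The list leaves out the member Rps27l, a target of p53 that was called higher. Cdkn1a, which halts the cell cycle, fell from 304 to 97.0 and 97.3 RPKM. Mdm2, the ligase that Rpl5 and Rpl11 bind, fell from 26.7 to 11.0 and 9.50 RPKM, and the log2 ratios of the falls of Ccng1 and Trp53inp1 were -1.49 and -1.57. Trp53 was 12.7 RPKM in control cells and 14.2 and 14.3 RPKM after knockdown, a log2 ratio of 0.16 that did not pass (limma adjusted p = 0.185). With the control SD at 3 times that of a knockdown library, Cdkn1a was the 1 gene of the RNA polymerase I, growth regulator and p53 lists that was called in either direction. At that SD 118 of all 9722 genes tested were called higher and 77 lower.

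**Figure D4:**
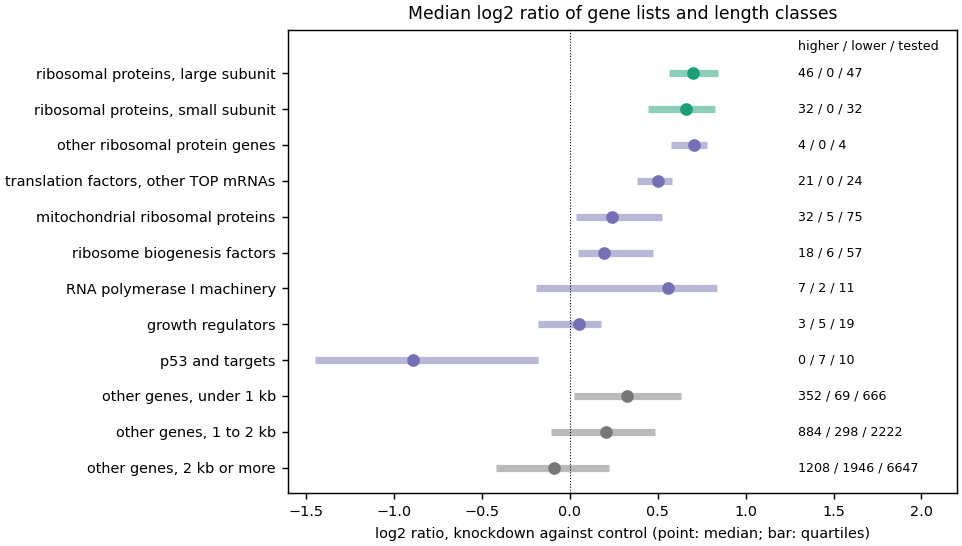
Median log2 ratio (points) and quartiles (bars) of the ribosomal protein genes by subunit, of other gene lists and of other genes by transcript length, with the numbers called higher, called lower and tested at the right. The ribosomal protein medians of 0.70 and 0.66 lie above the 0.33 of other genes under 1 kb, and the median of p53 and its targets lies below 0.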

How the data were processed

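RNA from B16F10 cells was sequenced after siRNA transfection, and the authors deposited 1 table of RPKM values, per the file headers, with 3 value columns, all used. CASAVA 1.4, TopHat, Cufflinks and build mm9 appear in the submitters' processing notes, without roles. Which annotation and gene filter were used is not given in the sources used here. When each column was sorted, 95.3% of positions held the same value to within 1e-09, so values had been quantile normalized before deposit. Depth was unknown and no counting interval was possible.

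Values were analysed as log2(RPKM + 1), which understates changes of low genes. The 9722 genes averaging 1 RPKM or more were tested with limma 3.58.1 in R 4.3.3 (lmFit and eBayes, trend on), with Benjamini-Hochberg adjustment over all genes and calls at 0.05. There was 1 residual degree of freedom beside a prior of 4.37, and the unreplicated control is assumed to vary as knockdown libraries do. The step was tested on simulated data in which all 3 libraries had the spread of the knockdown libraries. That test cannot show how the step behaves if the control varies more.

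Members and lists were chosen with earlier results of these data known. Named were, per subunit, the 6 members with the largest and the 6 with the smallest smaller ratio, the 5 most and the 5 least abundant, paralogs with their parents, a fixed set of 15 with known roles, and up to 4 genes of each other list. A few genes the rule selects are not reported here. Rplp2-ps1, Trp53, Bax, Mdm4, Mtor, Yy1, Eif4ebp1, Mlst8, Larp1, Pwp2 and Rpl35 were named, and the rule for the start regions was set, after values were seen. Length and GC came from GENCODE M21 by gene ID (98.9% of tested genes), from the APPRIS principal transcript. Start regions are RefSeq, GRCm38.p6, another build than mm9. Alternatives were other pseudocounts, filters, scalings, spreads, classes and left-out libraries; 2 length corrections were added after seeing the data. Tables were handled with Python 3.11.15 and pandas 2.3.3, and plots were drawn with matplotlib 3.10.9.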

Additional observations from a re-analysis of the deposited data

How the results depend on the processing

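Read depth was unknown, so the counting error of low values cannot be stated, and the lone control limits every test. No paired analysis was possible because there was 1 control library and its label carries no number. A pseudocount of 0.1, no filter, a minimum of 5 RPKM and a second quantile normalization left 78 members called higher, and a median shift, a loess on level and no intensity trend left 77, 77 and 74. The share of all genes called higher, 26.3% in the main setting, was not counted in these settings.

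With the control SD at 3 times that of a knockdown library, 21 members, 12 of the large and 9 of the small subunit, were called higher. Of the translation factors 2 were, and 0 of the mitochondrial ribosomal proteins, biogenesis factors, RNA polymerase I genes, growth regulators and ribosomal protein genes outside the symbol rule. At 2 times the counts were 13 translation factors, 10 mitochondrial ribosomal proteins, 6 biogenesis factors, 3 RNA polymerase I genes and 1 growth regulator. Over all genes tested, 1.21% were called higher at 3 times and 8.33% at 2 times. Called lower at 3 times were 1 gene of p53 and its targets, from 7, and 0 genes of the RNA polymerase I, growth regulator, mitochondrial ribosomal protein and biogenesis lists. Only 77 of all 9722 genes tested were called lower at 3 times, so a count of 0 in a short list says little about it. In both cases the larger spread assumed for the control sets the count.

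After the correction for length and GC, 14 members were 1.5-fold and 3 were 2-fold higher in both libraries, 1 was called lower, and the medians were 0.32 for all members, 0.32 for the large and 0.33 for the small subunit, and 0.53, 0.32 and 0.27 for the low, middle and high class. The difference of the medians, large minus small, was -0.00565. Rpl19, Rpl8, Rplp1, Rps15, Rps27l and Rps3a had log2 ratios of -0.110, -0.0759, -0.0206, -0.0332, -0.0496 and -0.103. With the trend fitted on other genes, 18 members were 1.5-fold and 3 were 2-fold higher and 1 was called lower. The medians were 0.36 for all, 0.36 for the large and 0.35 for the small subunit, 0.55, 0.35 and 0.30 for the classes, and 0.00915 for the difference. Rpl19, Rpl8, Rps15, Rps27l and Rps3a had log2 ratios of -0.0847, -0.0609, -0.00184, -0.00971 and -0.0843. With the median transcript length, 32 were 1.5-fold and 2 were 2-fold higher and 1 was called lower, with medians of 0.55 for all, 0.57 for the large and 0.50 for the small subunit, 0.68, 0.55 and 0.37 for the classes, and 0.0700 for the difference. In these corrections 28.1%, 28.3% and 28.5% of all genes were called higher, and 26.2%, 25.9% and 25.1% lower. The shares of all genes past the 1.5-fold and 2-fold limits were not counted in these corrections. The fold counts of the members therefore have no background there. Without correction those shares were 14.6% and 4.97%. Of the growth regulators 7, 7 and 6 were called higher, and 1 gene of p53 and its targets was. Of the mitochondrial ribosomal proteins 17, 16 and 9, from 5, were called lower. The cause was not tested.

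Scaling to the summed RPKM of other genes gave medians of 0.76 for all, 0.78 for the large and 0.74 for the small subunit and 0.93, 0.78 and 0.61 for the classes, with 10 members 2-fold higher. A loess on level gave 0.63 for all, 0.65 and 0.60 for the subunits, 0.81, 0.65 and 0.47 for the classes and 0.0506 for the difference, with 3 members 2-fold higher. The share of all genes 2-fold higher was not counted for the scaling or for this loess. Classes split at 100 and 300 RPKM gave 0.88 and 0.72 for the low and middle class. Without the paralogs the small subunit median was 0.68 and the difference 0.0243.

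Leaving out the first and then the second knockdown library, values with no test, gave medians of 0.67 and 0.71 for all members, 0.68 and 0.71 for the large subunit, differences of 0.0344 and 0.0432, and 5 and 9 members at least 2-fold higher. The share of all genes 2-fold higher was not counted for either library by itself.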
